A study of Mus musculus with 6 samples.

Results

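The comparison described here set NMuMG cells treated with BRM014 for 6 h against cells given the vehicle DMSO. NMuMG is an established epithelial line from normal mouse mammary gland, labelled wild type in every sample and grown in medium with serum and insulin. Both groups had 2 biological replicates, which makes 4 of the 6 samples of the series, and the authors deposited 1 list of accessible regions per group, made from both replicates together. Only the name of the DMSO list gives its time, 30 h. The 6 h cells therefore lacked a vehicle of matched time, and effects of time in vehicle and of BRM014 cannot be told apart. The extraction protocol also speaks of TGFβ, which no sample label carries. Members of the comparison were all regions of both lists, after entries that share bases within a list were merged: 42310 DMSO regions from 75531 entries and 25922 regions at 6 h from 48321 entries, on 20 chromosomes (1 to 19 and X). A DMSO region was called kept if a 6 h region overlapped it by at least 1 bp and lost if none did, and a 6 h region without a DMSO region was called new. Lost means not called in the 6 h list, which is not the same as closed.

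SWI/SNF complexes use the energy of ATP to slide or evict nucleosomes, and their motor is 1 of a pair of related ATPases, BRG1 (gene Smarca4) or BRM (gene Smarca2). BRM014 inhibits both. The complexes are known for keeping enhancers and other regulatory DNA open for transcription factors, and cells carry further remodellers that act at many promoters. In ATAC-seq the Tn5 transposase cuts and tags DNA that is not wrapped in nucleosomes, so a called region marks such open DNA, and a summit marks the place in it where tags pile up highest. A region can have several summits, each entered on its own line of the list.

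Every value below has 1 list per group behind it, so nothing here was tested between treatments and there is no replicate error. Intervals are 95% Wilson intervals for shares and intervals of binomial order statistics for medians. They treat regions as independent and cover counting error only. The lists also differed in depth. The lowest local background, recovered from the fold enrichment and the -log10 p of each entry, was 3.37 reads in the DMSO list and 2.12 at 6 h, a relative depth of 63.0% at 6 h. Depth thus moves with the treatment, and its part in the totals was not tested.

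Of the 42310 DMSO regions, 18452 were lost at 6 h, 43.6% (43.1 to 44.1%), and 23858 were kept. The share depends on the length of the lists: with the strongest 25922 regions of each it was 30.7% ranked on fold enrichment and 23.1% ranked on -log10 q. Because lost regions were narrower, they held 35.5% of the bases of the DMSO list. Of the 25922 regions at 6 h, 1923 were new, 7.42% (7.11 to 7.74%), and these held 4.71% of the bases of that list. With lists of equal length new regions made up 30.0% by fold enrichment and 22.3% by -log10 q, and among entries at the highest score of 1000 they made up 2.95%. The overlap rule left few regions near its edge: 1 kept region shared 50 bp or less with the 6 h list, and 12 lost regions had a 6 h region less than 50 bp away. The median kept region was covered by 6 h regions over 89.3% of its length.

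Lost regions were narrow and weak and mostly had a single summit. Their median width was 552 bp (quartiles 414 and 715 bp), against 789 bp (600 and 1001 bp) for kept regions. The difference of -237 bp became -55.9 bp with equal weights for the deciles of -log10 q. A single summit was found in 64.1% of lost regions (63.4 to 64.8%) and in 37.3% of kept ones (36.7 to 37.9%). The authors' fold enrichment, which is the pileup at the summit over the local background, had a median of 10.5 in lost regions (quartiles 7.79 and 14.0) and of 15.3 in kept regions (11.3 and 19.3). The authors' -log10 q, the significance of the summit, separated the classes more widely, with medians of 48.0 and 163. New regions were narrower still, with a median of 413 bp (292 and 529 bp) against 679 bp (499 and 883 bp) for the 6 h regions that overlapped DMSO regions.

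**Figure D1:**
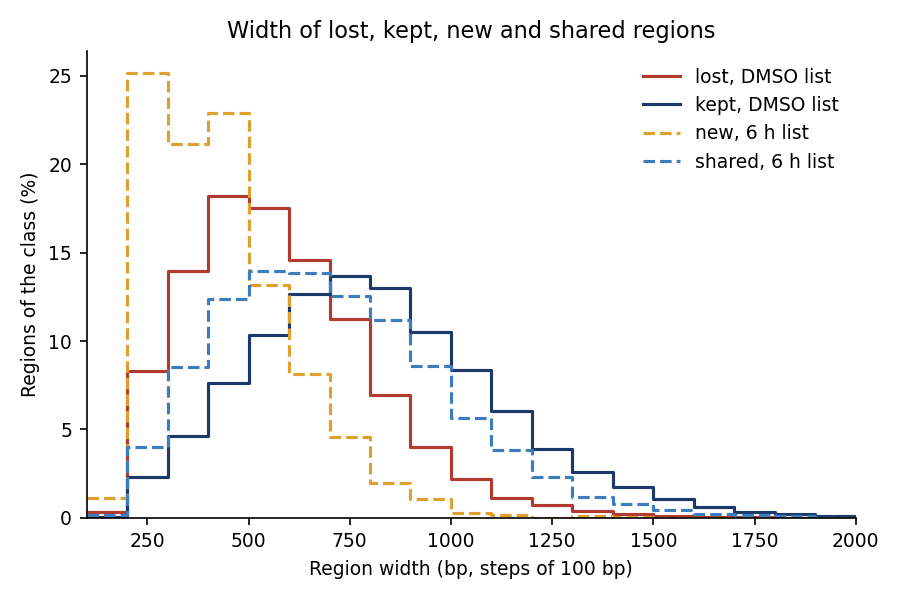
Share of each class of regions (y axis, %) by region width (x axis, steps of 100 bp), for lost and kept regions of the DMSO list (solid) and new and shared regions of the 6 h list (dashed). Lost regions had a median of 552 bp and kept regions one of 789 bp, and new regions were the narrowest, with a median of 413 bp.

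Regions with 4 or more summits were lost less often than regions with 1 at every strength. Without regard to strength, 57.1% of DMSO regions with 1 summit were lost, 38.2% with 2, 21.8% with 3, 11.6% with 4 and 8.82% with 5. Of the 171 regions with 6 or more summits 6 were lost, 3.51% (1.62 to 7.44%). With equal weights for the deciles of -log10 q the shares were 48.6 ± 0.569% for 1 summit, 43.1 ± 0.681% for 2, 35.5 ± 1.25% for 3, 26.7 ± 2.45% for 4 and 22.0 ± 4.24% for 5 (± is the 95% half-width). In the middle quintile of -log10 q, 52.8% of regions with 1 summit were lost (51.2 to 54.3%) and 12.5% of those with 4 or more (9.94 to 15.5%). In the weakest quintile these shares were 86.0% and 70.9%, and in the strongest 6.71% and 0.766%. In the weakest quintile regions with 1 and with 2 summits did not separate, at 86.0% (85.1 to 86.9%) and 85.1% (83.5 to 86.7%). The summits of 1 region share its reads, so the number of summits is not independent of width or depth. A region with several summits is also kept if any 1 of them is still called, and what this adds was not tested.

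**Figure D2:**
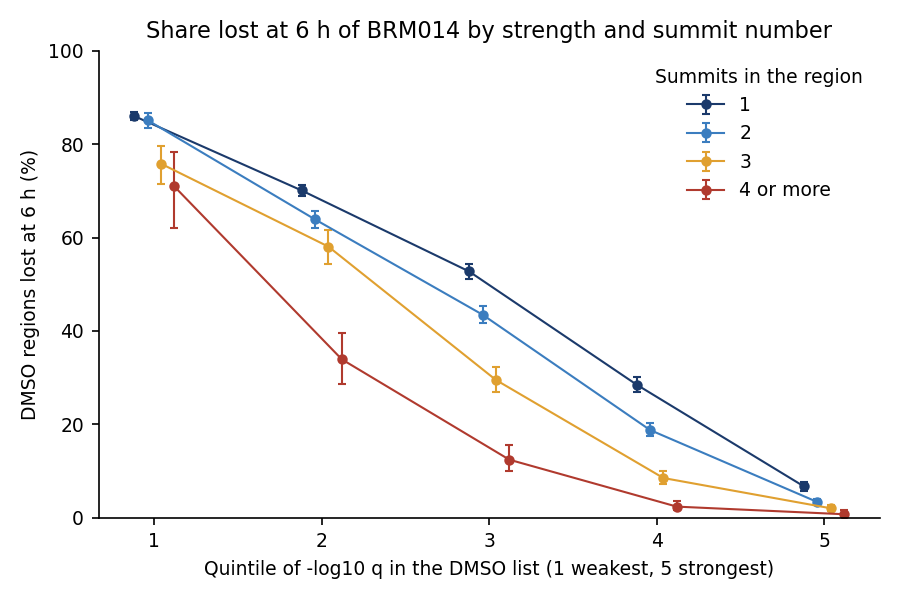
Share of DMSO regions lost at 6 h (y axis, %) by quintile of -log10 q in the DMSO list (x axis), for regions with 1, 2, 3 and 4 or more summits, with 95% Wilson intervals. In each quintile the regions with 4 or more summits lie lowest, and in the middle quintile they are at 12.5%, against 52.8% for regions with 1 summit.

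Width by itself followed loss less evenly once strength was held. The narrowest quartile of all DMSO regions lost 52.1 ± 1.13 percentage points more than the widest, but 9.86 ± 1.53 points more with equal weights for the deciles of -log10 q, where 1 cell of the comparison held only 40 regions. Within the weakest quintile of -log10 q the narrowest and the widest quartile of regions did not separate, at 83.4% lost (81.7 to 84.9%) and 83.7% (82.0 to 85.2%). Within the fourth quintile they were 26.3% (24.4 to 28.2%) and 6.47% (5.50 to 7.60%). A gap of this size between narrow and wide regions was not seen among the weakest regions.

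To set depth beside loss, the pileup of reads at each DMSO summit was multiplied by the relative depth of 63.0%, which gives the pileup expected at 6 h if nothing but depth had changed. The median 6 h region had a pileup of 85.0 and only 5% of 6 h regions were below 31.0. Among DMSO regions with an expected pileup from 16 to 32, 87.9% were lost, from 32 to 64 68.3%, from 64 to 128 39.0% and from 128 to 256 12.0% (11.3 to 12.6%). From 256 to 512 it was 1.24% (0.930 to 1.66%), and above 512 none of 233 regions was lost, with an upper Wilson limit of 1.62%. At or above an expected pileup of 128, 1206 of 13569 DMSO regions were lost, 8.89% (8.42 to 9.38%). Among regions expected between 128 and 256, those with a single summit were lost in 20.4% of cases (19.1 to 21.8%), those with 2 in 10.5%, those with 3 in 5.08% and those with 4 or more in 1.58% (0.974 to 2.55%). By width the same regions went from 29.9% lost in the narrowest quartile of the DMSO list to 4.95% in the widest.

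The strongest regions that were lost were scattered over the genome. The 10 lost regions with the highest -log10 q lay on 8 chromosomes, 6 of them had a single summit, and the nearest 6 h region was between 13196 and 285398 bp away. Over all lost regions this distance had a median of 14441 bp, with quartiles of 5121 and 38184 bp. The strongest was chr2:50705330-50706141 (build mm9, as all positions here), 812 bp wide with 2 summits, a -log10 q of 562 and a fold enrichment of 22.7. Next came a region with 1 summit at chr15:85765921-85766565, with a -log10 q of 528 and a fold enrichment of 27.8. The next was chr11:21851589-21852301, at a -log10 q of 518. The pileups at these summits were 589, 505 and 535 reads. The median over all lost regions was 73.0 and the highest 606. The next 3 lay at chr1:93474209-93475059, at chr16:76080078-76080809, and at chr15:12235995-12237408, with -log10 q of 473, 466 and 445. The region on chromosome 16 was the most remote of the 10, with its nearest 6 h region 285398 bp off. The other 4 were at chr8:96877805-96878750, at chr13:108466239-108467441, at chr3:21484483-21485216 and at chr16:78473590-78474192, with -log10 q from 432 to 442. In all, 56 of the 4231 regions in the strongest decile were lost, 1.32% (1.02 to 1.71%).

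Ranked on fold enrichment, which favours summits over a low background, mostly other lost regions came first. The highest was at chr1:184913102-184913647, 546 bp wide, enriched 31.7 times with a -log10 q of 344. After it came chr3:155372708-155373504 at 31.4, the chromosome 3 region already named at 31.3, chr10:7109112-7109568 at 31.2 and chr19:11505609-11506386 at 30.7. The region on chromosome 10 was 457 bp wide and 199710 bp from a 6 h region.

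Wide regions with many summits were rarely lost, and the 5 widest that were lost had -log10 q from 40.0 to 119. The widest lay at chr6:89311281-89313293, 2013 bp with 6 summits, enriched 7.01 times. A region of 1854 bp with 5 summits, chr7:76728682-76730535, was enriched 12.9 times and had the -log10 q of 119. The other 3 of the 5 widest were at chr12:70781646-70783435, chr14:26045680-26047447 and chrX:56819946-56821652, each with 4 or 5 summits and fold enrichments from 7.94 to 12.5. The region on chromosome 12 had a 6 h region 1199 bp away.

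Kept regions mostly became narrower. Of the 23858 kept DMSO regions, 23261 paired with a single 6 h region that overlapped no other DMSO region. In these pairs the median width was 788 bp in DMSO and 682 bp at 6 h, and 76.0% were narrower at 6 h (75.4 to 76.5%), 23.5% wider and 0.507% of equal width. The median ratio of 6 h to DMSO width was 0.912 (0.909 to 0.915), with quartiles of 0.775 and 0.996. At least 10% of the width was gone in 47.2% of pairs, while 10.1% had gained at least 10%, and 3.52% were left with 50% of their width or less. Over all pairs neither side was favoured: the left and the right edge each moved inward by a median of 21.0 bp. In 47.6% of pairs both edges of the 6 h region lay inside the DMSO region. Only the left edge did in 21.0%, only the right in 20.8% and neither in 10.6%. The relative depth of 63.0% applies to these pairs too, and its part in the narrowing was not tested.

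**Figure D3:**
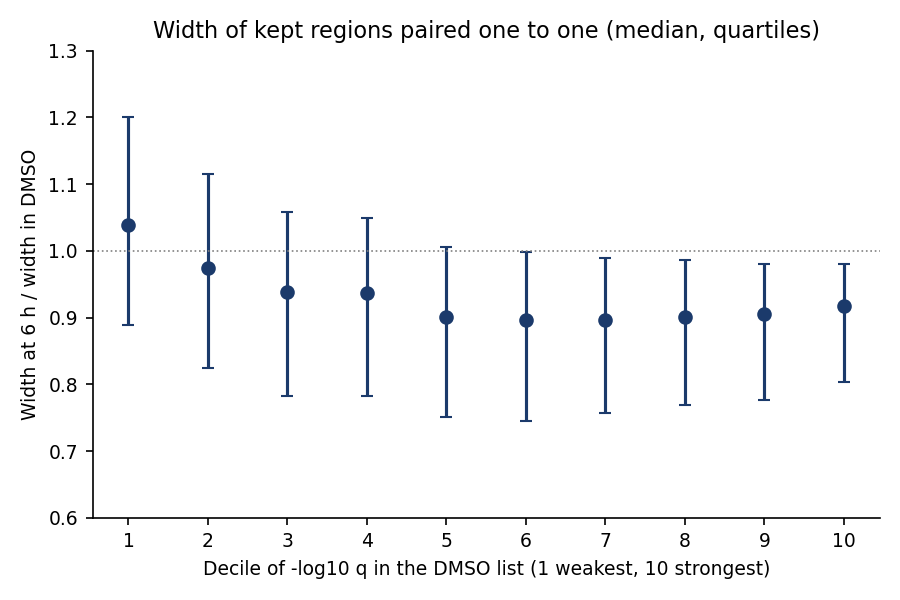
Width at 6 h divided by width in DMSO (y axis) for regions paired 1 to 1, by decile of -log10 q in the DMSO list (x axis, 10 is the strongest), as medians with bars from the lower to the upper quartile. The median is 1.04 in the weakest decile, between 0.897 and 0.975 in deciles 2 to 9, and 0.917 in the strongest.

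Strong regions narrowed more often than weak ones. In the strongest decile of DMSO regions 83.2% of pairs were narrower (82.1 to 84.4%), with a median ratio of 0.917, and in the weakest decile 42.6% (38.0 to 47.3%), with a median ratio of 1.04. The degree of narrowing did not rise steadily with strength: the median ratio was lowest in deciles 6 and 7, at 0.897 in both. Weak DMSO regions enter a pair only if they were strong enough to be called at 6 h. By summit number the median ratio went from 0.924 for regions with 1 summit to 0.834 (0.816 to 0.847) for regions with 5 or more. The largest narrowing in the strongest decile was at chr15:36829699-36831025, where a region of 1327 bp with 2 summits was reduced to 328 bp with 1 summit at 6 h. The region chr7:97470988-97472209, of 1222 bp, kept 363 bp and 1 of its 3 summits. The region chr19:10310255-10311223 went from 969 to 296 bp, that at chr8:86721126-86722791 from 1666 to 520 bp, and that at chrX:100751534-100752791 from 1258 to 423 bp. Each of these 5 was left with a single summit.

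Among strong pairs with the largest width ratio, the region at chr8:26575859-26576454 grew from 596 to 1107 bp, a ratio of 1.86. The region chr8:94069456-94070017 grew from 562 to 967 bp, that at chr9:104346907-104347495 from 589 to 974 bp, that at chr3:116653479-116654155 from 677 to 1088 bp, and that at chr11:69608642-69609223 from 582 to 890 bp. Each of these 5, chosen for the largest ratio in the strongest decile, had 1 more summit at 6 h than in DMSO.

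A small number of kept regions broke up or fused. In 295 cases 1 DMSO region lay over 2 or more 6 h regions, over 3 of them in 3 cases. These regions were wide, with a median of 1234 bp and 3 summits, and the gaps between the pieces had a median of 113 bp and ran from 71.0 to 691 bp. The region chr10:79495507-79497049, 1543 bp with 4 summits, was replaced by pieces of 619, 383 and 339 bp. That at chr7:6680076-6681764 left pieces of 335, 336 and 826 bp, and that at chr9:85735552-85737668, with 7 summits, left 307, 641 and 778 bp. The strongest regions that broke in 2 were both on chromosome 6, at chr6:66986425-66987746 and chr6:42299036-42300220, with -log10 q of 707 and 696. Fusion was rarer, with 157 regions at 6 h that each spanned 2 DMSO regions.

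Inside kept regions most summits of DMSO had a 6 h summit near them, and secondary summits lacked one more often than the main summit, the one with the highest -log10 q. A region counts as kept only if a 6 h region overlaps it, which by itself favours a held main summit, so this difference is a description. A DMSO summit was counted as held if a 6 h summit lay within 100 bp. Of the 48652 summits in kept regions, 9065 were not held, 18.6% (18.3 to 19.0%). Among the 23858 main summits 1.76% were not held (1.60 to 1.94%), and among the 24794 others 34.9% (34.3 to 35.5%). In the pairs the main summit moved by a median of 12.0 bp, and by more than 100 bp in 6.30% of them (6.00 to 6.62%). Such a move was seen in 8.94% of pairs with 2 or more DMSO summits and in 1.90% of pairs with 1.

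Secondary summits were weaker, with a median -log10 q of 23.0 against 163 for main summits. Within quintiles of summit -log10 q, 2.27% of main and 23.5% of secondary summits were not held in the second. The shares were 1.94% and 12.8% in the third, 1.88% and 10.7% in the fourth, and 1.40% and 14.7% in the strongest. The weakest quintile held only 5 main summits. Main summits of lost regions are not counted here, which favours held main summits at any strength. Place in the region was compared among secondary summits alone. In regions with 3 or more summits, 39.9% of the outermost secondary summits were not held (39.0 to 40.9%) and 24.5% of the inner ones (23.5 to 25.7%). Within quintiles of summit -log10 q the order held in the 3 weaker ones, for example 25.9% and 19.8% in the second, but not in the fourth, with 10.2% (8.25 to 12.5%) and 12.1% (9.96 to 14.6%), nor in the strongest, with 13.8% and 15.1%.

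Summits were lost and gained across the pairs. Of the pairs 24.4% had fewer summits at 6 h, 59.1% as many and 16.5% more. Regions that had 5 or more summits in DMSO had fewer at 6 h in 72.5% of cases (68.8 to 75.9%), with a mean of 3.94 left. Regions with 1 summit had more at 6 h in 21.4% of cases, and by construction none of the 8720 could have fewer. Grouping on the DMSO count also favours fewer summits in the highest class and more in the lowest. The size of this was not tested. Of the 45884 summits at 6 h inside shared regions, 13.7% had no DMSO summit within 100 bp (13.4 to 14.1%).

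Among strong kept regions the pileup at 6 h fell to very different degrees. For the 12025 pairs with an expected pileup of at least 128, the highest pileup found at 6 h was divided by the pileup expected from depth. The median was 0.781 (0.771 to 0.794), and 10% of pairs lay below 0.322 and 10% above 1.23. Of these pairs 26.9% had less than 50% of the expected pileup (26.1 to 27.7%) and 29.7% had more than was expected. These pairs were chosen by their DMSO pileup alone, which favours low ratios: chosen by the geometric mean of both pileups, 14.7% of 9684 pairs were under 50%. With the depth set so that the median strong pair is at 1, the share was 16.2%. On a log2 scale in steps of 0.25 the most populated step was the one from 0.00 to 0.25, with 2077 pairs, and the tail below it was longer than that above. The values rest on the depth taken from the lowest background, which scales all of them by 1 factor and sets which pairs count as strong, and on the same caller settings for both lists. Lost regions have no pileup at 6 h and are not among these pairs.

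**Figure D4:**
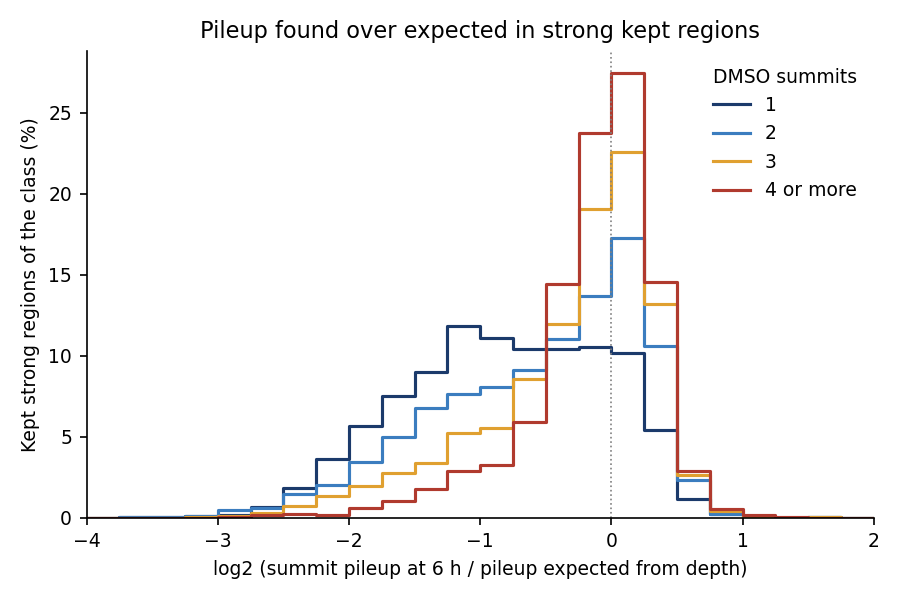
Share of strong kept regions (y axis, %) by the log2 of the summit pileup at 6 h over the pileup expected from depth (x axis, steps of 0.25), for regions with 1, 2, 3 and 4 or more DMSO summits; the dotted line marks the expected pileup. Regions with 1 summit spread far to the left, with 40.4% under 50% of the expected pileup, and regions with more summits gather near the line.

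The number of summits ordered these values as it ordered loss. Both measures favour regions with several summits by construction. The highest pileup of any summit counts at 6 h, so another summit can stand in for a main summit that fell. A region is likewise kept if any part of it is called. The size of this advantage was not tested. The median of found over expected was 0.581 (0.569 to 0.595) for regions with 1 summit, 0.768 for 2, 0.912 for 3, 0.979 (0.960 to 0.994) for 4 and 0.975 (0.949 to 1.01) for 5 or more, so the last 2 classes did not differ beyond their intervals. Less than 50% of the expected pileup was found in 40.4% of strong regions with 1 summit (38.9 to 42.0%) and in 5.75% of those with 5 or more (3.75 to 8.71%). The share was 19.6 points higher for 1 summit than for 2 or more, and 12.0 points higher with the median strong pair set to 1. Width ordered them too, from a median of 0.608 in the narrowest quartile of these pairs, 186 to 708 bp, to 0.943 in the widest, 1065 to 2386 bp. Summit number separated regions of like width in part. In the second quartile, 709 to 874 bp, the median was 0.540 for 1 summit, 0.723 for 2 and 0.899 for 3. In the third quartile the intervals for 1 and 2 summits overlapped, at 0.713 (0.656 to 0.799) and 0.803 (0.768 to 0.832). In the widest those for 2 and 3 summits overlapped, at 0.897 (0.844 to 0.937) and 0.919 (0.891 to 0.939). Width also separated regions with 2 summits, from 0.718 (0.685 to 0.755) in the narrowest quartile to 0.897 (0.844 to 0.937) in the widest. For regions with 1 summit the median did not rise steadily with width. It was 0.581 (0.567 to 0.595) in the narrowest quartile, with 2340 pairs, and 0.540 (0.515 to 0.577) in the second. In the third it was 0.713 (0.656 to 0.799), from only 299 pairs. Regions with 3 summits did not separate by width: their medians were 0.899, 0.909 and 0.919 in the 3 upper quartiles, with intervals that overlapped. Pairs that narrowed by at least 10% had a median of 0.617 (0.598 to 0.634), and pairs within 10% of their DMSO width one of 0.884. Of the 5 regions with the smallest width ratio in the strongest decile, 4 had between 0.199 and 0.324 of the expected pileup and the region on chromosome 8 had 0.998.

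New regions were weak and narrow within the 6 h list. Of them 77.4% had a single summit (75.5 to 79.2%), against 42.5% of the shared 6 h regions. In the weakest decile of -log10 q of the 6 h list 30.1% were new and in the fifth decile 2.93%. In the strongest none of 2593 was new, with an upper Wilson limit of 0.148%. By width 19.3% of the narrowest quartile of 6 h regions were new and 0.696% of the widest. The median distance to the nearest DMSO region was 8995 bp, with 11.4% within 1000 bp and 5.51% over 100 kb away. The nearest DMSO region was a lost one for 40.6% of new regions (38.4 to 42.8%), beside 43.6% of all DMSO regions lost.

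The 2 strongest new regions were both on chromosome 2 and both had 3 summits. The stronger, chr2:139926232-139927250, was 1019 bp wide with a pileup of 246, a -log10 q of 190 and a DMSO region 2387 bp away. The other, chr2:151319594-151320481, had a pileup of 190, a fold enrichment of 22.2 and the nearest DMSO region 34890 bp away. The other 8 of the 10 strongest had 1 summit each and -log10 q from 85.7 to 111. Of these, 4 were on chromosome 13, at chr13:21939605-21940111, chr13:23400573-23401050, chr13:21973581-21974038 and chr13:115516903-115517399. The remaining 4 were at chr15:10489720-10490129, chr3:120829401-120829917, chr12:92308858-92309417 and chr17:23685613-23685982. The region on chromosome 17 had a fold enrichment of 5.51 at a pileup of 220, so it stood on a high background, and a DMSO region 986 bp away.

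The windows with the most new regions were on chromosome 13. Of the 2316 windows of 1 Mb with any region, 1207 had no new region, and 29 had 5 or more. The window with the most, 11 of 57 regions at 6 h, was chr13:23000001-24000000, and the next, with 9 of 39, chr13:21000001-22000000. In the second of these only 4 of 34 DMSO regions were lost, 11.8% (4.67 to 26.6%). The others of the 5 were chr15:78000001-79000000 with 8 of 52, chr19:5000001-6000000 with 7 of 83 and chr8:124000001-125000000 with 7 of 39. A ranking by count favours windows with many regions. In the whole 6 h list 7.42% of regions were new, and the chromosome 19 window was close to that share. In all 5 windows the share of DMSO regions lost, 11.8 to 34.9%, was below the 43.6% of the whole list. The interval of the chromosome 15 window, 24.5 to 46.9%, includes that value. The 5 windows held 34 to 97 DMSO regions. Over all windows with 30 to 49 regions 41.3% were lost, and with 50 or more 35.9%.

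Loss varied along the genome. Per chromosome it went from 38.1% on chromosome 19 (35.7 to 40.5%), 38.7% on chromosome 7 (36.9 to 40.6%) and 39.2% on chromosome 11 (37.4 to 41.0%) to 48.6% on chromosome 12 (46.1 to 51.2%), 48.0% on the X chromosome (45.0 to 50.9%) and 47.5% on chromosome 18 (44.7 to 50.3%). The order followed the density of genes: chromosomes 7, 11 and 19 carry 13.6, 13.6 and 12.1 protein-coding genes per Mb, and chromosomes 12, 18 and X 5.79, 5.84 and 6.02. Genes were counted per chromosome in RefSeq's GRCm38.p6 table and divided by the span of the chromosome's DMSO regions, with no gene placed on mm9. Across the 20 chromosomes Pearson's r between share lost and gene density was -0.88 and Spearman's rho -0.89, and r was -0.87 with equal weights for the deciles of -log10 q. Without chromosomes 7 and 11, the farthest from the median density, r was -0.84. The upper end of the order depended on strength. With equal weights for the deciles chromosome 16 was highest at 46.8 ± 1.99%. Chromosomes 12, 18 and X were at 46.4 ± 1.95%, 45.8 ± 2.15% and 44.8 ± 2.19%. Chromosomes are not replicates, and all share the same libraries. The share of new regions showed less of this order, with an r of -0.15 over the 20 chromosomes and -0.31 over the 19 autosomes. The median of found over expected pileup in strong pairs had, against gene density, an r of 0.60 over the 20 chromosomes and 0.81 over the 19 autosomes; the X chromosome, gene-poor, had the highest median, 0.908, from 238 pairs. Without chromosomes 7 and 11 that r was 0.43.

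**Figure D5:**
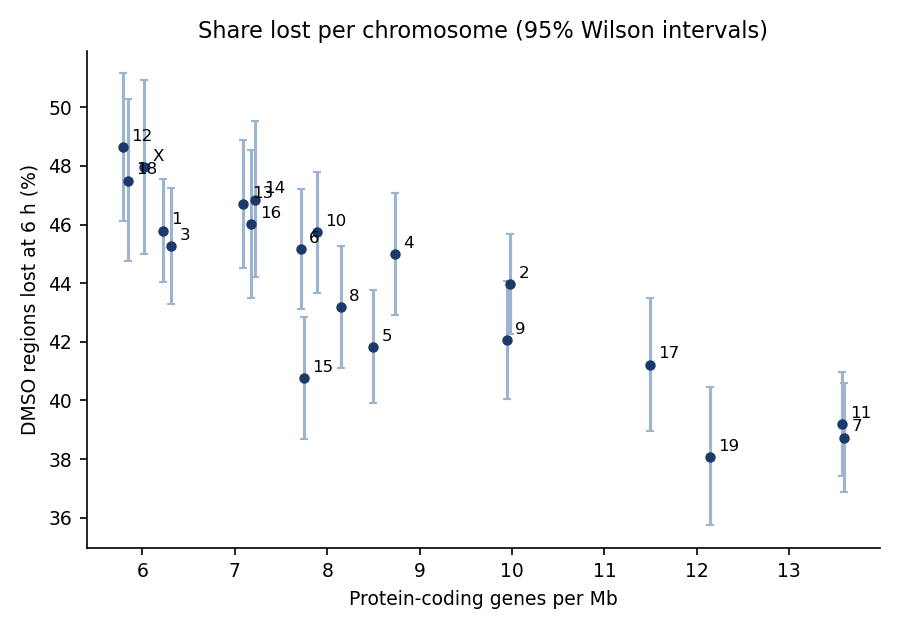
Share of DMSO regions lost at 6 h per chromosome (y axis, %, with 95% Wilson intervals) by protein-coding genes per Mb (x axis). Chromosomes 7, 11 and 19, with over 12 genes per Mb, lie between 38.1 and 39.2%, and chromosomes 12, 18 and X, with about 6 genes per Mb, between 47.5 and 48.6%.

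Windows with many DMSO regions lost a smaller share of them. In windows of 1 Mb with 1 to 9 DMSO regions 50.5% were lost (48.8 to 52.1%), with 20 to 29 regions 45.2%, with 30 to 49 regions 41.3%, and with 50 or more 35.9% (34.5 to 37.3%). With equal weights for the deciles of -log10 q the first and the last of these were 47.5 ± 1.33% and 37.3 ± 1.15%. Distance to the next DMSO region showed less: the closest quartile of regions lost 44.4% and the most isolated 44.0%, a difference of -0.347 ± 1.34 points (1.50 ± 1.06 with equal weights). Over a gap of more than 100 kb to the next region, 52.0% of 1256 regions were lost (49.2 to 54.7%), but 45.4 ± 2.18% with equal weights.

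In 915 windows that held 20 or more DMSO regions the median share lost was 42.9%, with quartiles of 34.6 and 51.3%. The highest was 80.0% (58.4 to 91.9%), 16 of 20 regions, at chr13:60000001-61000000. The window chr3:21000001-22000000 followed with 23 of 29, and it holds the strong lost region of that chromosome named above. Next were chr4:105000001-106000000 with 17 of 22, chr4:63000001-64000000 with 26 of 34, and chr2:133000001-134000000 with 16 of 21. The lowest was 4.76% (0.846 to 22.7%), 1 of 21 regions, at chr17:21000001-22000000. After it came chr7:28000001-29000000 with 4 of 42, chr5:110000001-111000000 with 2 of 20, the chromosome 13 window with 4 of 34, and chr8:72000001-73000000 with 4 of 33. By count most regions were lost in large windows: 34 of 80 at chr7:52000001-53000000, 32 of 47 at chr18:39000001-40000000, 32 of 62 at chr8:129000001-130000000, 31 of 75 at chr2:167000001-168000000 and 31 of 86 at chr10:80000001-81000000. Only the window on chromosome 18, with 68.1% lost (53.8 to 79.6%), had an interval wholly above the 43.6% of the list. These windows were picked as extremes of many, which their intervals do not allow for.

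Lost regions had lost neighbours somewhat more often than kept ones. Of DMSO regions whose neighbours on both sides were kept 39.5% were lost (38.6 to 40.3%), with 1 lost neighbour 44.2%, and with both lost 49.1% (48.1 to 50.2%). With equal weights for the deciles of -log10 q the first and last were 40.1 ± 0.649% and 48.1 ± 0.843%. Where both gaps exceeded 50 kb the same shares were 41.9 ± 2.51% and 47.5 ± 2.69%, so the difference was also seen between distant neighbours.

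Runs of consecutive lost regions were short in general, but 23 of them had 10 or more regions. The longest was 15 regions over 522 kb at chr15:8396482-8918101, with -log10 q between 24.1 and 239. It was followed by 14 regions over 254 kb at chr3:37585858-37839415, and by 13 over 259 kb at chr16:87060267-87318926. Runs of 12 regions lay at chr6:99881617-100146461 and at chr14:60937515-61322003. Over these 5 runs the highest -log10 q of a run went from 149 to 268. The lowest went from 16.8 to 24.1, within the weakest decile of the DMSO list, so each run held weak regions as well. Kept regions, which are more numerous, formed 123 runs of 10 or more, the longest with 26.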

How the data were processed

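ATAC-seq peak lists of NMuMG cells given DMSO or BRM014 for 6 h were used, each made by the authors from both replicates of its group, per the labels. Per the submitters' processing notes, peaks were called with MACS2 2.1.2 on mm9. The aligner, read filters, any shift of reads and the caller's options are not given in the sources used here. The deposited score ran from 540 to 1000 in both lists, and entries reached down to a -log10 p of 2.00 in DMSO and 2.01 at 6 h. The score was used as a filter only, and strength was ranked on -log10 q and fold enrichment. What the limit of 540 did to the calls of lost and new regions was not tested. The authors' fold enrichment, their deposited -log10 p and -log10 q, and the summit position were taken as deposited, to describe and rank regions within a list. A merged region took the highest value of its entries.

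Each entry was solved for its pileup, a whole number, and its background from its fold enrichment and -log10 p, assuming the caller's default formulas, and matched within 0.001 for 100% of entries in both lists. The lowest background was taken as proportional to depth. Read totals were not used. Merging, overlap, pairing, summit matching and the pileup solution were tested on simulated data. The members and all lists and rules were chosen with earlier results of these data known. Named regions were the extremes in -log10 q, fold enrichment, width, width ratio, number of pieces and run length, and the extreme windows of 1 Mb. The use of pileups over expected, gene density per chromosome and windows by region number were added with the values in view. The gene table and promoter sequences at hand are on GRCm38, so no gene was assigned to a region, the planned gene lists were not used, and no sequence is shown. The 30 h list was not used. Python 3.11.15, numpy 2.4.6, pandas 2.3.3, scipy 1.17.1 and matplotlib 3.10.9 were used.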

Additional observations from a re-analysis of the deposited data

How the results depend on the processing

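No paired analysis was possible because the deposited lists pool the replicates, and for the same reason none could be left out. Read totals were not used, and what depth limits was not tested. Values are given in the order regions lost, regions new, median width of lost minus kept regions, points lost by single-summit over multi-summit regions, points lost by the most isolated over the closest quartile, pairs narrower at 6 h, and DMSO summits not held. As reported they were 43.6%, 7.42%, -237 bp, 26.4, -0.347, 76.0% and 18.6%. Requiring 50% of a region to be overlapped gave 45.8%, 7.77%, -218 bp, 23.0, unmoved, 75.01% and 16.7%. Counting regions up to 500 bp apart as shared gave 41.5%, 6.92%, -219 bp, 24.3, 7.60, 76.6% and 20.5%. With entries at a score of 1000 in both lists they were 51.7%, 2.95%, -208 bp, 25.3, -4.70, 76.5% and 18.0%. With 25922 regions in each list, the strongest by fold enrichment, they were 30.7%, 30.0%, -177 bp, 21.2, 1.71, 78.6% and 19.0%, and ranked on -log10 q, a ranking chosen after seeing the data, 23.1%, 22.3%, -166 bp, 17.6, -2.10, 78.9% and unmoved. Equal list lengths by their construction bring the counts of lost and new regions together. The main summit rule and merging within 100 bp moved no value beyond its interval. With equal weights for deciles of -log10 q the width difference was -55.9 bp, the summit difference 9.28 points and the spacing difference 1.50 points. Counting only pairs at least 10% narrower gave 47.2%, and summits matched within 50 bp or 200 bp gave 23.4% and 15.6% not held. The sign of the spacing difference turned with the setting. Strong pairs under 50% of the expected pileup were 26.9%, and single-summit regions exceeded the others by 19.6 points. Alternatives added after seeing the data gave 16.2% and 12.0 points with the median strong pair set to 1, 14.7% and 15.0 points for the 9684 pairs strong by the geometric mean of both pileups, and 33.6% and 24.7 points with the 1206 strong lost regions counted in. Except for equal lengths, the cause was not tested.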

Other observations

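The strongest region of both lists stood apart from all others. It lay at chr5:60433931-60434389, 459 bp wide with 1 summit. Its fold enrichment was 54.6 in DMSO and 54.0 at 6 h, its -log10 q was 4559 and 5650, and its width at 6 h was 473 bp. Its pileup was 3462 reads in DMSO and 4309 at 6 h, although the 6 h list had 63.0% of the depth, so 1.98 times the expected pileup was found. With a near equal fold enrichment in both lists, its local background was also higher at 6 h. The next region by -log10 q in DMSO, at chr19:18964649-18965453, had 1810 reads in DMSO and 999 at 6 h, 0.876 times the expected pileup.

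Single strong regions at the ends of the range of found over expected pileup, chosen after their values were seen, show how far kept regions differed. The region chr13:102197474-102198357 had a pileup of 375 in DMSO and 20 at 6 h, 0.0847 times the expected pileup, and was 884 bp wide in DMSO and 736 bp at 6 h. The region chr18:51314738-51315554 went from 325 to 18 reads, and that at chr3:51719842-51720700 from 397 to 24. At the other end, a region at chr11:48669726-48670691 went from 272 reads in DMSO to 510 at 6 h and kept the same 966 bp and 2 summits. The region chr13:21261492-21262349 went from 221 to 414 reads, and that at chr11:68854385-68854900 from 229 to 416. The last 3 had low fold enrichments in DMSO, from 6.64 to 7.22, beside a median of 13.0 in the list.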
